A study of Homo sapiens with 16 samples.

Results

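RNA levels of 38 genes of glycolysis and of the hypoxia response were followed in HCT116, an established cell line from a human colorectal carcinoma. The members were fixed by symbol, and all 38 were among the 28502 gene symbols of each expression table and among the 11845 loci whose mean reached 1 FPKM, a level scaled by transcript length and sequencing depth. The cells received 1 of 3 transfections and 1 of 2 treatments: a small interfering RNA against EZH1 (siEZH1), one against UXT (siUXT) or a preparation labelled NC, each with tumour necrosis factor (TNF) or phosphate-buffered saline (PBS). Each of the 6 conditions had 1 poly(A) RNA library, so no condition had a replicate, and the 10 chromatin samples of the study were not analysed here. The EZH1 protein is a catalytic subunit of Polycomb complex PRC2, which methylates histone H3, and UXT is a small prefoldin-like protein. The sources used here do not give the dose and duration of TNF or the number of siRNA sequences per target, and do not spell out NC.

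Glycolysis splits glucose into pyruvate in the cytosol, and many tumour cells turn much of that pyruvate into lactate and export it even when oxygen is present. When oxygen falls, the prolyl hydroxylases of the EGLN family no longer mark HIF alpha subunits for degradation, and HIF then binds short DNA elements near genes of glucose uptake, glycolysis, angiogenesis, pH control and mitophagy. The EGLN1 and EGLN3 genes are themselves HIF targets, which makes the pathway a feedback loop. HIF alpha is controlled mainly as a protein, which RNA levels do not measure.

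The labels were first set against the targeted genes. UXT was at 24.6 FPKM in siUXT TNF and 27.7 in siUXT PBS, compared with 59.6 in NC TNF and 62.2 in NC PBS. EZH1 was at 4.14 and 4.05 FPKM in siEZH1 TNF and siEZH1 PBS, against 5.12 and 5.45 in NC TNF and NC PBS. The UXT level was thus lower by a wider margin than the EZH1 level. Over 12 alternative settings of the limma fit, the EZH1 difference in siEZH1 was between -0.36 and -0.26 on the log2 scale. Its limma adjusted p was at least 0.107 in all of them. The UXT difference in siUXT was between -1.32 and -1.06 over the same settings. Its limma adjusted p was as high as 0.910 among them. Of 8 colorectal epithelial markers, 7 reached 1 FPKM in at least 1 library and VIL1, the microvillus protein villin, did not exceed 0.091 FPKM. KRT20 ranged from 0.68 to 1.89 FPKM and was below 1 in NC PBS, NC TNF and siUXT PBS. The 8 markers of blood, stromal and endothelial cells summed to between 5.81 and 8.52 FPKM, mostly from COL1A1, and 4 of them were listed at 0 in every library. Low values that step by single fragments put the depth of NC TNF and siEZH1 TNF at 0.719 and 0.720 of NC PBS and that of the other libraries between 0.951 and 1.02. The siUXT PBS library stood apart: 1947 of the loci tested were at least 1.5-fold lower there than in NC PBS, against 363 between siUXT TNF and NC TNF. Limma calls that change without it are given beside the results.

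The letters that HIF reads were looked for in the promoters of the members. The core of the hypoxia response element was searched as ACGTG and GCGTG on both strands, in windows of 250 bases before and 50 bases after each gene's start from RefSeq (GRCh38.p14); the palindrome CACGTG counts on both strands. Of the 38 members 33 had a window, and SLC2A3, VEGFA, STC1, BNIP3L and NDRG1 had none. Among members with 1 window, 19 of 21 held the core, against 47.3% of all genes with 1 window. The core was in 31 of the 33 members when any window was counted, against 52.4% of all genes. Counted by window, 42 of 61 member windows (68.9%) held it, against 48.4% of all windows. The base composition of the windows was not matched. A match describes the letters and not a bound site. The 5 windows below belong to members on which the comparisons turn, each in a different role, written 5′ to 3′ with the matches in capitals:
SLC2A1, chr1:42958819-42959118, minus strand: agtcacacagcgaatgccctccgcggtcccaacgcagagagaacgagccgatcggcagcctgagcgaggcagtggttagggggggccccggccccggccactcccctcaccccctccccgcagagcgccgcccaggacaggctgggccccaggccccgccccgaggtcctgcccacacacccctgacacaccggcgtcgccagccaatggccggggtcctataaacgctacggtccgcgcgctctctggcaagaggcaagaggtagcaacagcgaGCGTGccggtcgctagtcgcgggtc
STC2, chr5:173328365-173328664, minus strand: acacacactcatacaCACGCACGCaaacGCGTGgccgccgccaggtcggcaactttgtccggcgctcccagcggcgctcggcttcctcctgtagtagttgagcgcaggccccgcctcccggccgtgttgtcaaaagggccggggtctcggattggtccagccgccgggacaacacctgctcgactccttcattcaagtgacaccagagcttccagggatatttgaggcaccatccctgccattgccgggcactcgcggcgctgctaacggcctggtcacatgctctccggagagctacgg
GPI, chr19:34364742-34365041, plus strand: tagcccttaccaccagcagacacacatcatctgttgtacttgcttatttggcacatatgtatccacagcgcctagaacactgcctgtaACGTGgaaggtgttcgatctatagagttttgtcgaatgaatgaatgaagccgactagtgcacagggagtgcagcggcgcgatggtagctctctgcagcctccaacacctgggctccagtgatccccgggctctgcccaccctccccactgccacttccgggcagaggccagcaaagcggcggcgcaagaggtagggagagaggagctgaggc
EGLN1, chr1:231422238-231422537, minus strand: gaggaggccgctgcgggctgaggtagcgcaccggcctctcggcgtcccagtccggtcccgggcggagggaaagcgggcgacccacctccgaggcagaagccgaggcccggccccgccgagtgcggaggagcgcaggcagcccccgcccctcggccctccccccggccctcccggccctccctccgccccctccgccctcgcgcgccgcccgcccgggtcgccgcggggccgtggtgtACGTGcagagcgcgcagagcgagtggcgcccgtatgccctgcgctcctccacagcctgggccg
P4HA1, chr10:73096817-73097116, minus strand: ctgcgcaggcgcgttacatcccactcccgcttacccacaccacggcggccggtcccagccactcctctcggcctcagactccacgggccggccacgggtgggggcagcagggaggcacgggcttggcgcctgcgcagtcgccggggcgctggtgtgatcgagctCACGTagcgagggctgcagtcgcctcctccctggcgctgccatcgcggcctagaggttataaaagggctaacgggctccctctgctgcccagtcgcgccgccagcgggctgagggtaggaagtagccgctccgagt
Counted from the gene's start, with minus for bases before it, the match began at position 26 in SLC2A1, -13 in EGLN1, -86 in P4HA1 and -162 in GPI. STC2 held 3 matches, which began at -235, -231 and -222, and the first pair of them overlapped by 1 base.

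Levels of the members spanned from 1.02 FPKM for STC1 in NC TNF and NC PBS to 5651 FPKM for GAPDH in siUXT PBS. The 38 genes together made up between 2.35% (siEZH1 PBS) and 3.0% (siUXT PBS) of the FPKM sum over all loci. Highest in every library was GAPDH, which makes the first high-energy intermediate of the lower pathway, at 3513 FPKM or more. ENO1, the main enolase, reached at least 1296 FPKM and PKM, the pyruvate kinase that makes ATP and pyruvate, at least 1181. The least abundant members were the carbonic anhydrases CA9 and CA12 at the cell surface, with ranges of 1.15 to 2.56 and 1.48 to 2.73 FPKM, and the secreted glycoprotein gene STC1, from 1.02 to 3.32. Between the highest and the lowest library, levels differed least for LDHA and BNIP3, each by a factor of 1.22, and most for EGLN1, by a factor of 3.71. Counts of GAPDH, TPI1, PGAM1, LDHA and ENO1 can share reads with processed pseudogenes, so these levels are uncertain. GAPDH, BNIP3, CA9, NDRG1 and VEGFA each had the same values as 1 further symbol at the locus.

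**Figure D1:**
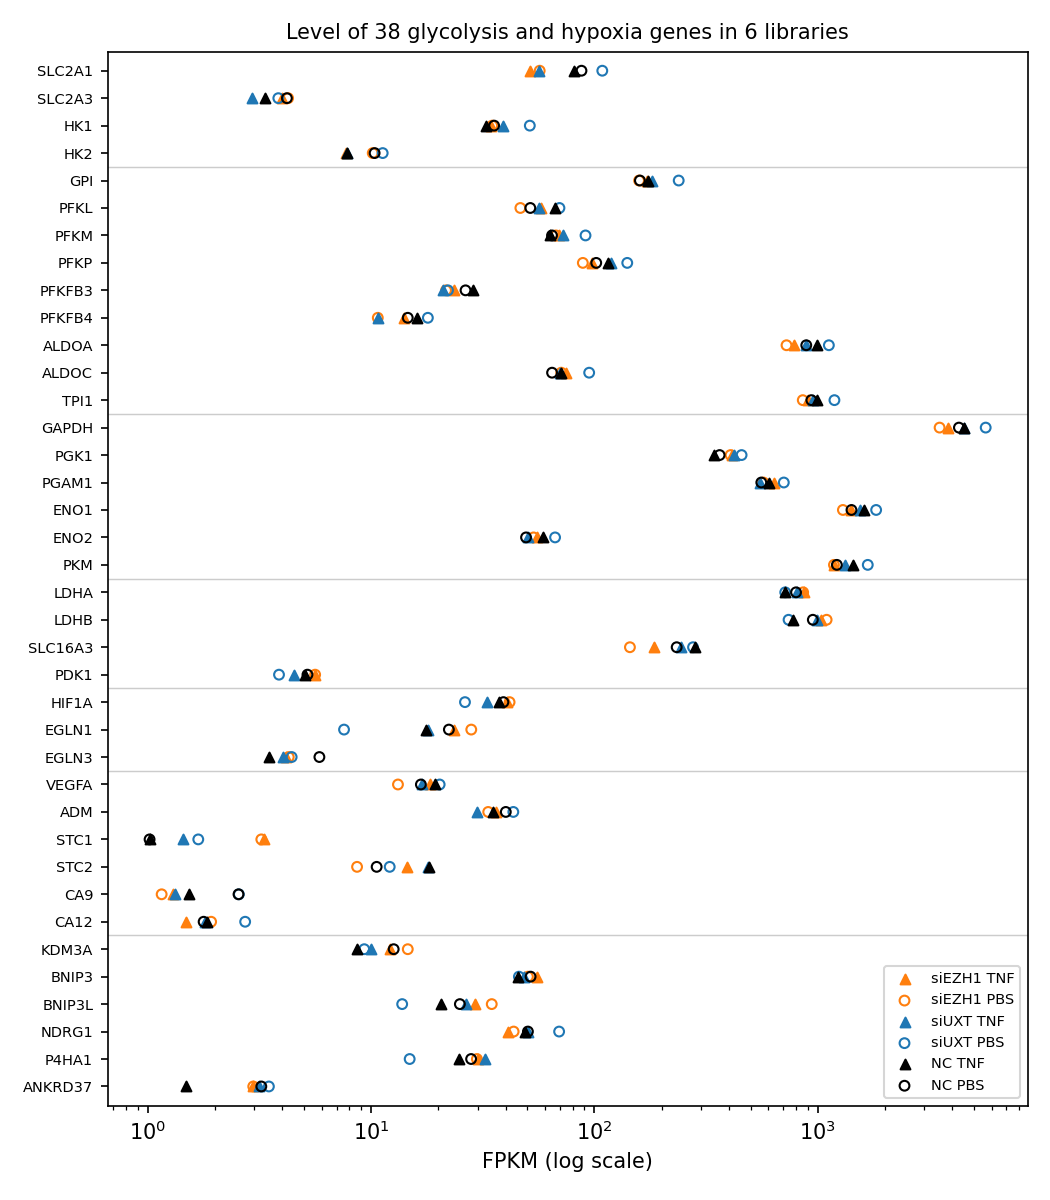
FPKM on a log axis of each of the 38 members in the 6 libraries, 1 symbol per library, with grey lines between roles. For most genes the 6 symbols lie close together; the open blue circles (siUXT PBS) are at the right end for most enzymes of glycolysis and at the left end for EGLN1, BNIP3L and P4HA1.

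Where several genes encode the same transporter or enzyme, some families had 1 dominant form and others did not. SLC2A1, the GLUT1 glucose transporter, held between 92.7% and 96.6% of the sum of SLC2A1 and SLC2A3, and HK1 between 77.4% and 83.3% of the hexokinases. ALDOA held at least 91.1% of the aldolases and ENO1 at least 96.0% of the enolases. The phosphofructokinases were more even, with PFKP, the platelet form, at 43.3% to 48.0%, PFKM, the muscle form, at 25.9% to 33.2% and PFKL, the liver form, at 22.8% to 27.2%. LDHB, the lactate dehydrogenase subunit of oxidative tissues, held 50.9% to 56.0% of the sum with LDHA, so the subunits were near parity in every library. PFKFB3 and PFKFB4 set the level of fructose 2,6-bisphosphate, the activator of phosphofructokinase. The PFKFB4 share of their sum was 34.0% in siUXT TNF and 44.8% in siUXT PBS, against 35.9% in NC TNF and 35.5% in NC PBS.

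The siEZH1 comparison asks how these genes differ between the siEZH1 and the NC libraries. A glucose importer and a lactate exporter were lower in both siEZH1 libraries, and STC1 was higher in both. SLC2A1 was at 51.2 FPKM in siEZH1 TNF and 56.9 in siEZH1 PBS, compared with 80.6 in NC TNF and 87.5 in NC PBS. Both siEZH1 libraries lay below both NC libraries, and the share of loci tested with such a separation was not counted. SLC16A3, the MCT4 lactate exporter, was at 185 and 144 FPKM in siEZH1 TNF and PBS, against 284 and 234 in NC TNF and PBS. The ratio to NC was 0.635 under TNF and 0.650 under PBS for SLC2A1, and 0.653 and 0.617 for SLC16A3. STC1, which encodes stanniocalcin, a secreted glycoprotein induced by hypoxia, was at 3.32 and 3.22 FPKM in siEZH1 TNF and PBS, against 1.02 in each of NC TNF and NC PBS. The other member apart by at least 1.3-fold in both pairs was BNIP3L, a mitophagy receptor, with 29.1 and 34.7 FPKM in siEZH1 TNF and PBS, against 20.7 and 25.0 in NC TNF and PBS.

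None of these differences passed the test over all 6 libraries. Limma's additive model of transfection and treatment called 0 of 38 members at a Benjamini-Hochberg adjusted p under 0.05, against 0.0169% of the loci tested (2 loci), and 3 members had an unadjusted p under 0.05 (7.89% of members, against 8.21% of loci). The model's differences on the log2(FPKM + 1) scale were -0.63 (SE 0.24) for SLC2A1, -0.65 (SE 0.18) for SLC16A3 and 1.08 (SE 0.20) for STC1, each with a limma adjusted p of 0.602. BNIP3L differed by 0.47 (SE 0.31), with a limma adjusted p of 0.649. Its estimate was 0.17 without NC TNF, 0.19 without siEZH1 PBS, 0.75 without siEZH1 TNF and 0.76 without NC PBS, and that of SLC2A1 ranged from -0.84 without NC PBS to -0.42 without NC TNF. At least 1.3-fold higher in both pairs were 2 members, against 4.51% of the loci tested, and lower also 2, against 8.64%. At least 1.5-fold the same way in both pairs were 3 members, SLC2A1, SLC16A3 and STC1, against 2.85% of the loci tested. In single pairs, 4 members were at least 1.5-fold apart under TNF (9.76% of loci) and 4 under PBS (7.28% of loci), so the count of members was close to these shares.

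Without the siUXT PBS library, the model leaves 1 residual degree of freedom and its spread comes from the siEZH1 and NC pairs alone. Without the siUXT TNF library the siEZH1 fit likewise called 11 members, against 1339 loci higher and 1750 lower of the 11845 tested. Without siUXT PBS, limma called 5 members higher, against 11.8% of the loci tested, and 6 lower, against 14.7%. The 5 were PGK1, LDHB, EGLN1, STC1 and BNIP3L. The 6 were SLC2A1, SLC16A3, GAPDH, ALDOA, PFKP, the platelet phosphofructokinase, and PFKFB3. ALDOA, which cleaves fructose bisphosphate, was at 783 and 725 FPKM in siEZH1 TNF and PBS, against 992 and 889 in NC TNF and PBS. GAPDH was at 3849 and 3513 FPKM, against 4503 and 4288. PGK1, the ATP-making kinase after GAPDH, went the other way, at 411 and 407 FPKM in siEZH1 TNF and PBS, against 344 and 364 in NC TNF and PBS. The members differed in both directions, and the median difference over the 38 was 0.02 under TNF and -0.03 under PBS, against 0.02 and 0.00 over all loci tested. From glucose uptake to pyruvate, 13 of 19 members were lower in siEZH1 under each treatment, against 47.5% of all loci tested under TNF and 49.3% under PBS. Across the loci tested the siEZH1 difference had a Spearman correlation with genomic gene span of 0.274 under TNF and 0.263 under PBS (11034 loci with a span), against -0.030 and 0.145 over the 38 members; the part of span in these results was not tested.

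**Figure D2:**
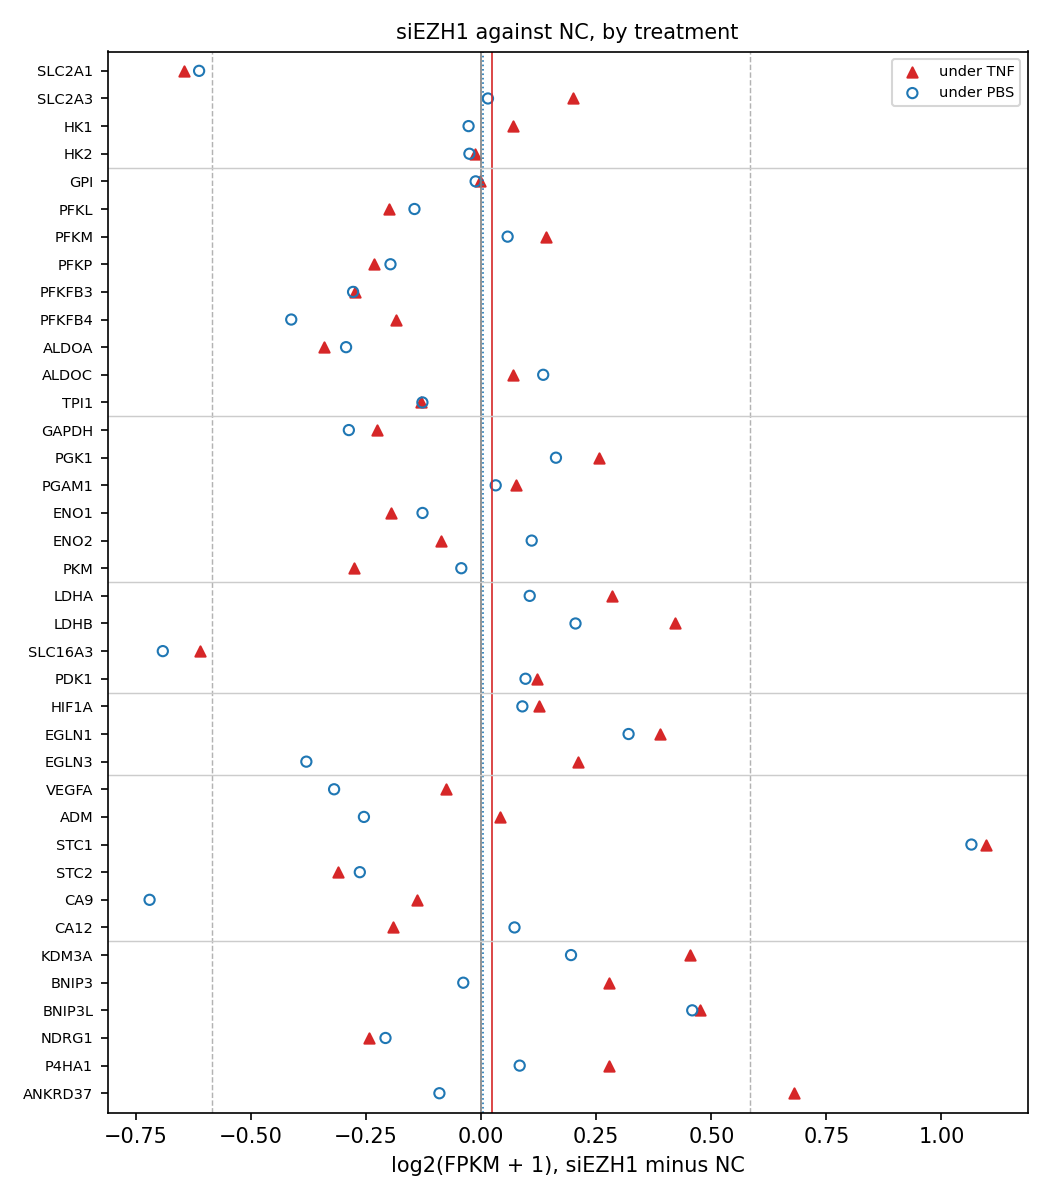
Difference of log2(FPKM + 1), siEZH1 minus NC, for each member under TNF (red triangles) and PBS (open blue circles); dashed lines mark 1.5-fold and thin red and dotted blue lines the median of all loci tested. SLC2A1 and SLC16A3 lie left of the lower dashed line and STC1 right of the upper one under both treatments.

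Other members that stood out in 1 siEZH1 pair did so in opposite or unequal ways. CA9, the carbonic anhydrase that acidifies the outside of hypoxic tumour cells, was at 1.15 FPKM in siEZH1 PBS compared with 2.55 in NC PBS; it was at 1.3 in siEZH1 TNF compared with 1.53 in NC TNF. ANKRD37, an ankyrin repeat gene induced by HIF, was at 2.97 FPKM in both siEZH1 libraries, compared with 1.48 in NC TNF and 3.22 in NC PBS. For ANKRD37 the library apart from the other 5 was NC TNF. HIF1A, the oxygen-regulated subunit gene, was at 40.7 and 41.7 FPKM in siEZH1 TNF and PBS, against 37.2 and 39.1 in NC TNF and PBS. HK2, the inducible hexokinase, and GPI, the isomerase of the second step, had siEZH1 to NC ratios between 0.981 and 0.998.

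The siUXT comparison asks the same of the siUXT libraries and uses the same NC libraries as the siEZH1 comparison. In siUXT PBS nearly every enzyme from glucose to pyruvate was higher than in NC PBS, while HIF1A, EGLN1, BNIP3L and P4HA1 were lower. Under TNF few of these enzymes were higher, and EGLN1, BNIP3L and P4HA1 were not lower. GPI was at 238 FPKM in siUXT PBS compared with 159.8 in NC PBS; it was at 181 in siUXT TNF compared with 173 in NC TNF. GAPDH was at 5651 FPKM in siUXT PBS compared with 4288 in NC PBS, and at 4497 in siUXT TNF compared with 4503 in NC TNF. For both genes siUXT PBS was the highest of the 6 libraries. PKM was at 1675 FPKM in siUXT PBS compared with 1218 in NC PBS, HK1 at 51.4 against 35.5 and ALDOC, the brain aldolase, at 94.7 against 64.6. Under TNF, PKM was at 1328 in siUXT against 1431 in NC, HK1 at 39.1 against 32.9 and ALDOC at 70.1 against 71.1.

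Of the 19 members from glucose uptake to pyruvate, 17 were higher in siUXT PBS than in NC PBS, with a median difference of 0.37 on the log2(FPKM + 1) scale, against 0.04 for all loci tested, of which 53.4% were higher. The exceptions were SLC2A3, the GLUT3 transporter, and PFKFB3, with ratios of 0.915 and 0.834. Under TNF, 6 of the 19 were higher in siUXT than in NC and the median was -0.06, against 0.01 for all loci tested, of which 52.0% were higher. PGK1 was the member with nearly equal ratios, at 1.23 under TNF and 1.25 under PBS. SLC2A1 turned with treatment, at 56.5 FPKM in siUXT TNF compared with 80.6 in NC TNF and at 108 in siUXT PBS compared with 87.5 in NC PBS. PFKFB4 did likewise, at 10.8 against 16.0 under TNF and 18.0 against 14.6 under PBS.

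Lactate dehydrogenase did not follow the other enzymes. LDHB was at 740.2 FPKM in siUXT PBS compared with 951 in NC PBS, and at 994 in siUXT TNF compared with 772 in NC TNF. LDHA was at 715 against 799.6 under PBS, and at 809 against 715 under TNF. PDK1, a kinase that inhibits pyruvate dehydrogenase, was at 3.87 FPKM in siUXT PBS compared with 5.19 in NC PBS. SLC16A3 was at 276 in siUXT PBS compared with 234 in NC PBS, on the side of the glycolytic enzymes.

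Genes of the oxygen-sensing loop and several intracellular HIF targets were also lower in siUXT PBS. EGLN1, which encodes the main HIF prolyl hydroxylase PHD2, was at 7.56 FPKM in siUXT PBS compared with 22.3 in NC PBS; it was at 17.9 in siUXT TNF compared with 17.7 in NC TNF. P4HA1, a collagen prolyl hydroxylase subunit, was at 14.9 FPKM in siUXT PBS compared with 28.0 in NC PBS, and at 32.5 in siUXT TNF compared with 24.7 in NC TNF. BNIP3L was at 13.8 against 25.0 under PBS and at 26.6 against 20.7 under TNF. In all 3 genes siUXT PBS was the lowest of the 6 libraries. HIF1A was also lowest there, at 26.3 FPKM compared with 39.1 in NC PBS, and at 33.1 in siUXT TNF compared with 37.2 in NC TNF. KDM3A, a histone demethylase induced by HIF, was at 9.32 against 12.6 under PBS and 9.95 against 8.63 under TNF. NDRG1, a stress-response gene, was instead higher at 69.5 against 50.4 under PBS, and 50.5 against 48.7 under TNF. BNIP3, the paralog of BNIP3L, stayed within 45.5 and 55.4 FPKM in the 6 libraries.

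**Figure D3:**
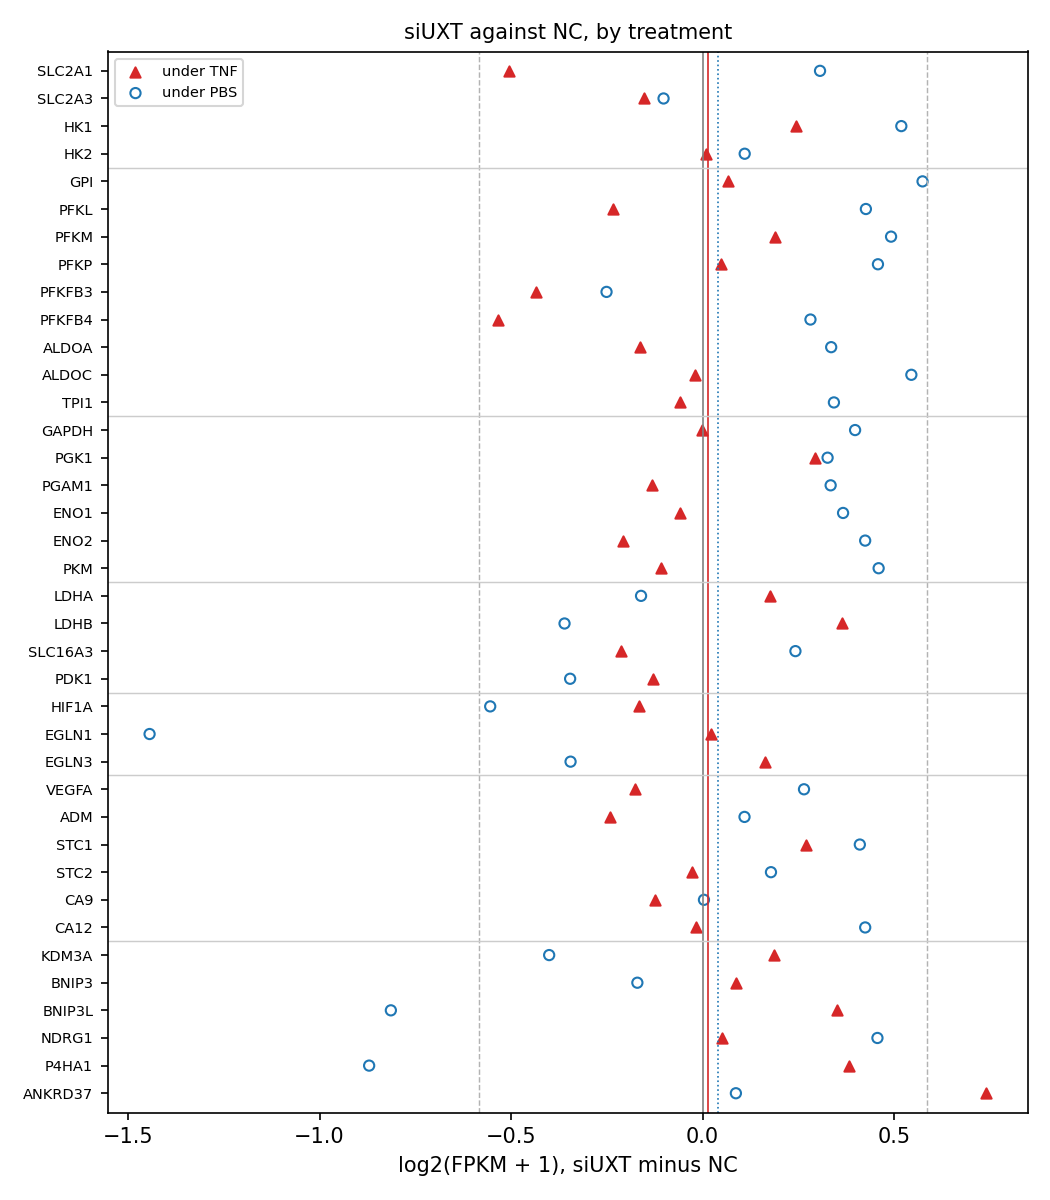
Difference of log2(FPKM + 1), siUXT minus NC, for each member under TNF (red triangles) and PBS (open blue circles); dashed lines mark 1.5-fold and thin red and dotted blue lines the median of all loci tested. Under PBS the enzymes from HK1 to PKM lie mostly between 0.3 and 0.6, and EGLN1, P4HA1 and BNIP3L lie left of the lower dashed line.

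Over all 6 libraries limma with Benjamini-Hochberg adjustment called 0 of 38 members for siUXT at 0.05, against 0.0422% of the loci tested (5 loci), and 0 had an unadjusted p under 0.05, against 3.65% of loci. The lowest limma adjusted p of a member was 0.908. That model takes the difference between the PBS and TNF pairs as error. On the log2(FPKM + 1) scale, 3 members were at least 1.5-fold lower in the PBS pair (EGLN1, P4HA1 and BNIP3L), against 16.4% of the loci tested. On that scale 0 were at least 1.5-fold higher there, against 4.11%. In the TNF pair 0 members were at least 1.5-fold lower, against 3.06%, and 1 was higher (ANKRD37, 3.13 in siUXT TNF compared with 1.48 in NC TNF), against 3.12%. At least 1.3-fold the same way in both pairs on that scale were 0 members, against 1.71% of loci higher and 1.08% lower. At 1.5-fold there were 0, against 0.625%. By plain FPKM, STC1 was at 1.44 in siUXT TNF and 1.68 in siUXT PBS, against 1.02 in each NC library. Its siUXT to NC ratio was 1.41 under TNF and 1.65 under PBS, and that of CA12 was 0.982 and 1.53. Both are among the least abundant members, and the shares of loci by plain FPKM were not counted. As a share of the 38 members, the 3 lower in siUXT PBS were 7.89%, which is below the background share.

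Without the siUXT TNF library, the siUXT estimate rests on siUXT PBS alone, whose spread is assumed to be like that of the other groups. In that fit limma called 17 members higher, against 12.0% of the loci tested, and 4 lower (HIF1A, EGLN1, BNIP3L and P4HA1), against 18.4%. The 17 were 15 members from SLC2A1 to PKM, SLC16A3 and NDRG1. The largest of the higher ones was GPI at 0.58 (SE 0.08, limma adjusted p = 0.00401), and EGLN1 was at -1.43 (SE 0.11, limma adjusted p = 0.000789). Without the siUXT PBS library limma called 0 members for siUXT at an adjusted p under 0.05, against 0.439% of loci higher and 0.65% lower, and 10 members had an unadjusted p under 0.05, as did 23.4% of all loci.

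Expression level moved with the siUXT PBS difference across all loci. The median was 0.18 for the 200 loci averaging 300 FPKM or more and -0.03 for the 3809 loci between 3 and 10 FPKM. The 9 members above 300 FPKM had a median of 0.34, and the 10 members between 30 and 100 FPKM had a median of 0.43, against 0.15 for the 1860 loci of that range. The 8 members between 10 and 30 FPKM had a median of -0.33, against 0.07 for 3436 loci. The difference also had a Spearman correlation with gene span of -0.218 over loci and -0.118 over the 38 members. The part of expression level, span and the library itself in these results was not tested. In bulk libraries, less RNA per cell and fewer cells with the RNA cannot be told apart.

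**Figure D4:**
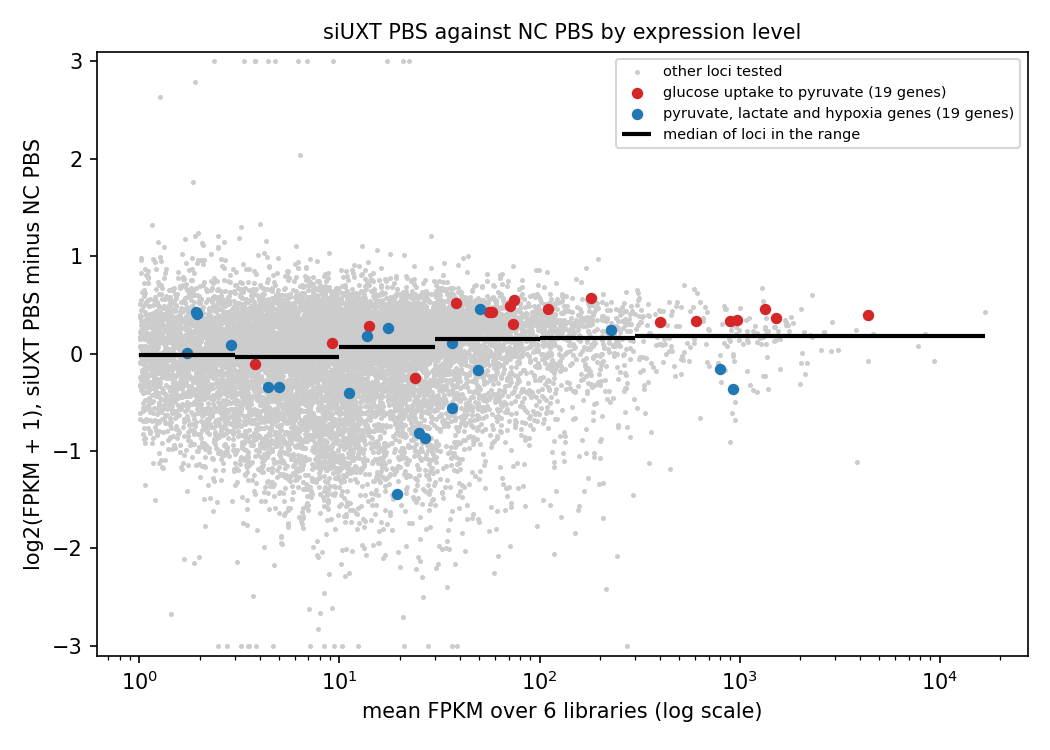
Difference of log2(FPKM + 1), siUXT PBS minus NC PBS, against mean FPKM (log axis) for all loci tested (grey; values beyond 3 are drawn at the edge) and the members in red and blue. Black bars give the median of the loci in each range of level; most red points (glucose uptake to pyruvate) lie above the bars, and the lowest blue points are EGLN1, P4HA1 and BNIP3L.

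The third comparison sets TNF against PBS in each transfection. On the log2(FPKM + 1) scale, the 1 member at least 1.3-fold apart in every transfection was STC2. It encodes a second stanniocalcin and is also known as a target of the unfolded protein response. STC2 was at 14.5 FPKM in siEZH1 TNF against 8.65 in siEZH1 PBS, at 17.9 in siUXT TNF against 12.1 in siUXT PBS and at 18.2 in NC TNF compared with 10.6 in NC PBS. All 3 TNF libraries lay above all 3 PBS libraries. The mean difference was 0.65 ± 0.11 on the log2(FPKM + 1) scale (SD, n = 3 transfections), with a limma adjusted p of 0.359 (SE 0.15). HK2 was lower in all 3 pairs, at 7.70, 7.83 and 7.77 FPKM with TNF in siEZH1, siUXT and NC, against 10.2, 11.3 and 10.4 with PBS. Its TNF and PBS libraries did not overlap either, and its mean difference was -0.40 ± 0.06 (SD, n = 3 transfections, limma adjusted p = 0.999, SE 0.15). For STC2 and HK2 alike, the share of loci tested with libraries apart in this way was not counted.

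Limma called 0 of 38 members for TNF at a Benjamini-Hochberg adjusted p under 0.05, against 0.414% of the loci tested (49 loci), and 2 members, STC2 and HK2, had an unadjusted p under 0.05, against 3.96% of loci. At least 1.3-fold higher in every pair was 1 member (STC2), against 1.55% of the loci tested, and 0 were lower, against 0.245%. HK2 lay just outside that limit on the log2(FPKM + 1) scale, with its smallest difference at -0.36. By plain FPKM its TNF to PBS ratios were 0.757, 0.695 and 0.750 in siEZH1, siUXT and NC, at least 1.3-fold lower in every pair. At 1.5-fold the same way in every pair there were 0 members, against 1.02% of loci. Without the siUXT PBS library limma called STC2 higher (0.71, SE 0.09, limma adjusted p = 0.0139), 1 member against 2.47% of the loci tested. Without the siUXT TNF library it also called 1 member, against 294 loci higher and 34 lower of the 11845 tested.

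In single pairs on the log2(FPKM + 1) scale, 1 member was at least 1.5-fold apart in siEZH1 (STC2), against 4.58% of the loci tested. There were 6 in siUXT, against 20.4%, and 3 in NC, against 5.38%. The 3 in NC were STC2, EGLN3, at 3.47 FPKM in NC TNF compared with 5.87 in NC PBS, and ANKRD37. The 6 in siUXT were SLC2A1, PFKFB4, CA9, EGLN1, BNIP3L and P4HA1, and they rest on the same siUXT PBS library as the comparison with NC PBS. By plain FPKM, CA9 in NC (TNF to PBS ratio 0.601) and CA12 in siUXT (0.660) were also at least 1.5-fold apart. From glucose uptake to pyruvate, 19 of 19 members were lower in siUXT TNF than in siUXT PBS, against 5 of 19 lower in siEZH1 and 6 of 19 in NC. Of all loci tested, 54.0% were lower with TNF in siUXT, 48.6% in siEZH1 and 52.6% in NC. The medians over the 19 were -0.34 in siUXT, 0.08 in siEZH1 and 0.11 in NC, against -0.05, 0.01 and -0.02 for all loci tested. The TNF responses were not tested against each other, since single pairs leave no residual degrees of freedom. Outside siUXT, upper glycolysis genes were mostly higher with TNF, 9 of 9 in siEZH1 and 8 of 9 in NC. Among all loci tested, 51.2% were higher with TNF in siEZH1 and 47.2% in NC. Genes of glucose uptake and phosphorylation went the other way, with 0 of 4 higher in siEZH1 and 0 of 4 in NC. The TNF to PBS ratios of the upper glycolysis genes were at most 1.3 (PFKFB4) in siEZH1 and 1.28 (PFKL) in NC. ALDOA was at 783 FPKM in siEZH1 TNF against 725 in siEZH1 PBS, and at 992 in NC TNF compared with 889 in NC PBS. VEGFA, the angiogenic growth factor, was at 18.3 against 13.2 in siEZH1, 17.0 against 20.3 in siUXT and 19.3 against 16.7 in NC, TNF against PBS each time. ADM, the vasodilator peptide adrenomedullin, was at 36.3 against 33.4, 29.7 against 43.3 and 35.3 against 40.1 in the same order. Neither gene had the same direction in the 3 transfections.

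**Figure D5:**
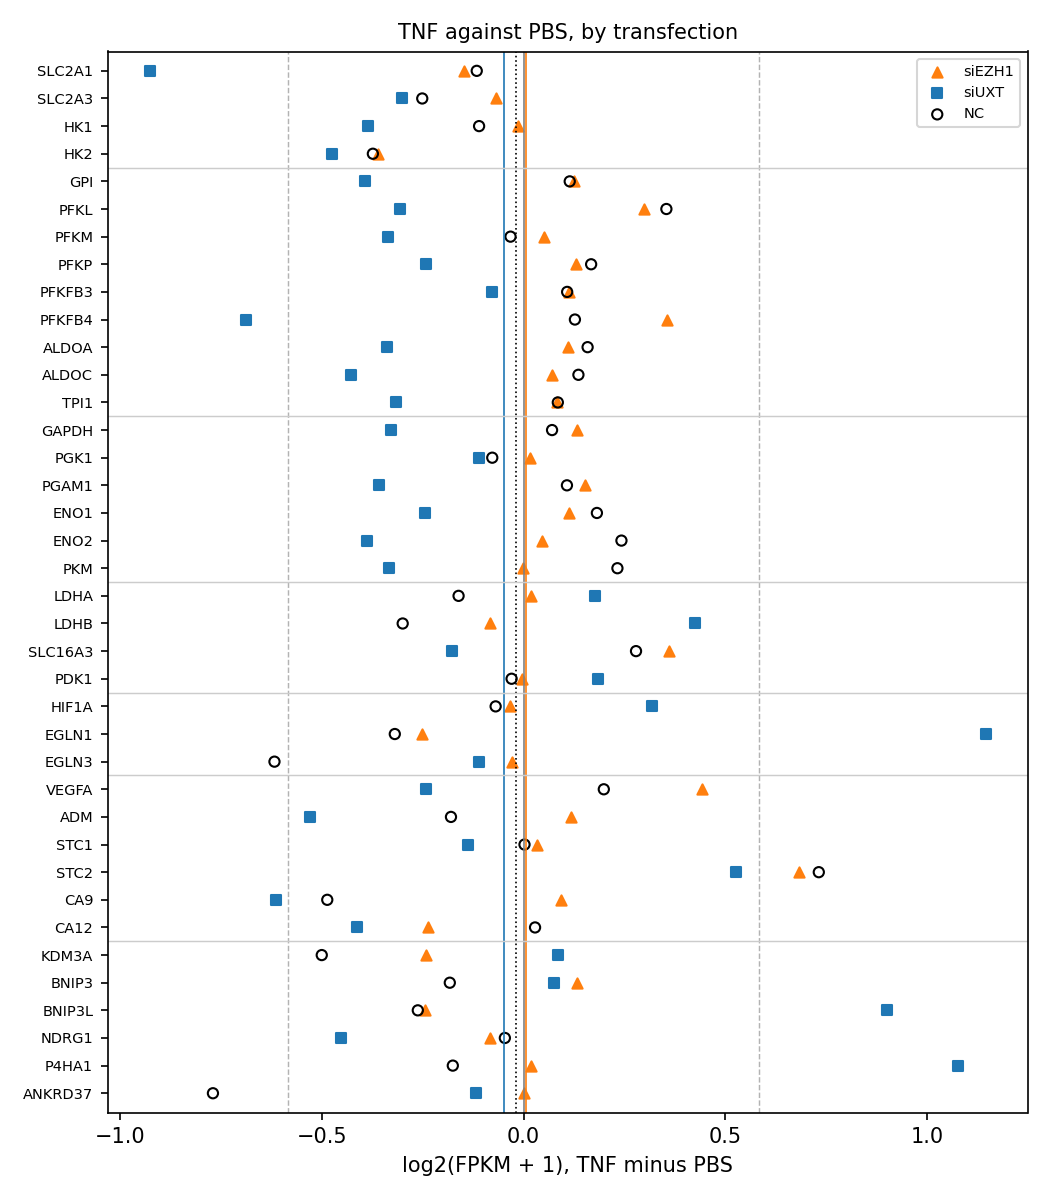
Difference of log2(FPKM + 1), TNF minus PBS, for each member in siEZH1 (orange triangles), siUXT (blue squares) and NC (open black circles); dashed lines mark 1.5-fold and thin lines the median of all loci tested. STC2 lies between 0.53 and 0.73, and the blue squares of the enzymes from SLC2A1 to PKM all lie left of 0.

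Other genes of the same pathways were read from 3 further lists. Of 21 tested genes of glycolysis and pyruvate entry and of 14 tested HIF pathway components, limma called 0 in any comparison. At an unadjusted p under 0.05 these lists had 0 and 1 genes for TNF, 2 and 0 for siEZH1 and 1 and 0 for siUXT. Of all loci tested, 3.96% met this limit for TNF, 8.21% for siEZH1 and 3.65% for siUXT. Of 35 other hypoxia target genes tested, limma called 2 higher and 0 lower for TNF, against 48 higher and 1 lower of the 11845 loci tested, and called 0 for either knockdown. At an unadjusted p under 0.05 there were 6 of the 35 for TNF and 2 for each knockdown, against the same shares of all loci tested. The 2 called for TNF were MAFF, a small MAF transcription factor, and FOSL2, an AP-1 subunit, both genes that inflammatory signals are also known to induce. MAFF was at 11.9, 18.6 and 16.7 FPKM with TNF in siEZH1, siUXT and NC, against 2.41, 4.95 and 4.02 with PBS, a rise of 1.82 (SE 0.16, limma adjusted p = 0.00655). FOSL2 was at 18.5, 20.9 and 24.6 FPKM with TNF in siEZH1, siUXT and NC, against 6.43, 9.69 and 8.83 with PBS, and rose by 1.27 (SE 0.16, limma adjusted p = 0.0431). Both were higher in every TNF library than in any PBS library, a separation whose share over all loci tested was not counted. Neither was called without the filter on low values (limma adjusted p = 0.0518 for MAFF and 0.147 for FOSL2). FOSL2 was also not called without siEZH1 PBS (0.0513) or siEZH1 TNF (0.059). CXCR4, a chemokine receptor gene, was at 8.36, 6.09 and 7.16 FPKM with TNF, against 2.13, 2.54 and 1.57 with PBS, a difference of 1.42 (SE 0.20, limma adjusted p = 0.0596) that did not pass the test over 6 libraries. It passed when any 1 library was left out, with limma adjusted p between 0.00188 and 0.0112. In the fits without an NC or siEZH1 library the prior degrees of freedom were infinite, against 4.42 with all libraries. There the spread came from the trend over all loci and not from CXCR4 itself. The CXCR4 estimate in those fits was 1.29 to 1.34, with SE from 0.32 to 0.34. ERRFI1, which encodes an inhibitor of EGF receptor signalling, differed by 0.81 (SE 0.14, limma adjusted p = 0.132), and by 0.67 without siUXT PBS or without siUXT TNF (limma adjusted p = 0.00308 and 0.00307). MIF, a cytokine gene induced by hypoxia, was at 749.8 and 489.9 FPKM in siEZH1 TNF and PBS, against 1231 and 979 in NC TNF and PBS (-0.86, SE 0.20, limma adjusted p = 0.602). Without siUXT PBS or siUXT TNF its limma adjusted p was 0.00646 and 0.0060, and its estimate ranged from -1.12 without siEZH1 TNF to -0.59 without siEZH1 PBS. PDP2, a phosphatase that activates pyruvate dehydrogenase, was at 5.85 and 9.20 FPKM in siUXT TNF and PBS, against 3.37 and 4.83 in NC TNF and PBS (0.73, SE 0.21, limma adjusted p = 0.908). It differed by 0.58 without siUXT PBS (limma adjusted p = 0.129) and by 0.87 without siUXT TNF (limma adjusted p = 0.0136).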

How the data were processed

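RNA was measured in 6 poly(A) libraries of HCT116 cells. The authors deposited 1 table of FPKM values per library. The submitters' processing notes name FastQC, cutadapt, TopHat2, Bowtie and the hg19 build. Tool versions, the gene annotation and the software behind FPKM are not stated in the sources used here. FPKM depends on library composition and on the annotated length of each gene, and fragment counts are not given, so no counting interval is stated.

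The 19326 symbols above 0 were reduced to 17642 loci by joining symbols whose 6 values were equal, and the 11845 loci whose mean reached 1 FPKM were tested. Values were analysed as log2(FPKM + 1), which understates differences of low genes. Fold limits were applied on this scale, while the ratios given are of plain FPKM. Limma 3.58.1 in R 4.3.3 (lmFit, eBayes with trend) fitted transfection and treatment additively over 6 libraries, with 2 residual degrees of freedom and 4.42 prior degrees of freedom, two-sided, with Benjamini-Hochberg adjustment over all loci tested and a threshold of 0.05. Nothing in the labels says whether libraries came from separate transfections, so p-values measure the spread between these libraries only. Single pairs have no test and are described by ratios. The script was tested on simulated data. Relative depth was read from low values (under 0.4 FPKM, tolerance 2%). Python 3.11.15 with pandas 2.3.3 did the rest. Members and lists were chosen with earlier results of these data known. Named members were those called, apart by 1.3-fold or more in 1 direction in every pair, or at least 1.5-fold apart in 1 pair; other pathway genes at least 1.5-fold apart in every pair. The remaining members are described by their values. Alternatives were the pseudocount, the filter, size factors, trend, merging and leaving out each library.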

Additional observations from a re-analysis of the deposited data

Results flagged for a closer look

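For 4 members the knockdown difference had opposite signs under the 2 treatments, with at least 1.5-fold in 1 of them. The share of all loci tested that meets this rule was not counted, so the 4 have no background beside them. These differences were not tested, since each rests on 4 single libraries. For siUXT against NC, EGLN1 was at 0.02 under TNF and -1.44 under PBS on the log2(FPKM + 1) scale, a gap of 1.47. BNIP3L was at 0.35 and -0.81, a gap of 1.16, and P4HA1 at 0.38 and -0.87, a gap of 1.25. All 3 gaps rest on the siUXT PBS library, where 16.4% of the loci tested lay 1.5-fold or more below NC PBS. For siEZH1 against NC, ANKRD37 was at 0.68 under TNF and -0.09 under PBS, a gap of 0.77, and its NC TNF value was the lowest of the 6 libraries.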

How the results depend on the processing

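No member was called in any comparison with a pseudocount of 0.1, no filter, a mean of at least 5 FPKM, size factors, eBayes without trend or unmerged symbols. When 1 library was left out, members called ranged from 0 to 1 for TNF, 0 to 11 for siEZH1 and 0 to 21 for siUXT. Loci called then ranged from 100 to 294 higher and 24 to 35 lower for TNF, 14 to 1396 and 24 to 1750 for siEZH1, and 21 to 1425 and 25 to 2179 for siUXT, against 48 and 1, 0 and 2, and 3 and 2 with all libraries. These fits leave 1 residual degree of freedom, and the high ends came from leaving out a siUXT library. Their prior degrees of freedom were infinite without an NC or siEZH1 library, 5.15 without siUXT PBS and 5.18 without siUXT TNF. For TNF, no filter gave 23 loci higher, and 0 lower, as did a pseudocount of 0.1, size factors and eBayes without trend. A mean of at least 5 FPKM left 1 locus lower for siEZH1, and 0 higher and 1 lower for siUXT; a pseudocount of 0.1 left 0 and 0 for siUXT. With a pseudocount of 0.1, 5 members were at least 1.5-fold apart in siUXT PBS against NC PBS (STC1 and CA12 added), 2 were 1.3-fold apart in every TNF pair (HK2 added) and 1 in both siUXT pairs (STC1). The shares of all loci at that pseudocount are not given, so these counts have no background. STC1 and CA12 are among the least abundant members, at 1.02 to 3.32 and 1.48 to 2.73 FPKM. The named estimates kept their sign in all alternatives. Over 12 alternatives, the limma adjusted p (Benjamini-Hochberg) ranged from 0.0064 to 1.00 for SLC2A1, 0.0060 to 1.00 for SLC16A3 and 0.014 to 1.00 for STC2, and over 11 from 0.0096 to 0.884 for STC1. For BNIP3L the estimate ranged from 0.17 to 0.76 and the limma adjusted p from 0.0116 to 1.00 over 12 alternatives. The additive model pairs TNF and PBS libraries by transfection; no block by replicate number was fitted, since the labels carry no such numbers. Depth below that of NC PBS in NC TNF and siEZH1 TNF limits the precision of CA9, CA12, STC1 and ANKRD37 most.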
